A study of Homo sapiens with 6 samples.

Results

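The cholesterol and fatty acid synthesis genes described here are 29 genes chosen by symbol for their place in these routes, out of 23340 gene names in each deposited table, and all 29 were found. They encode enzymes that build cholesterol from acetyl-CoA, enzymes that build, desaturate and elongate fatty acids, and regulators of both routes.

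RNA was sequenced from 3 human cell lines with 2 libraries each, 6 libraries in all. HT-29, a colorectal adenocarcinoma line, was labelled as given 24 hours of IFN-γ at 200 U per ml, with a medium of McCoy's 5A and 10% FBS. MDA-MB-436, a breast adenocarcinoma line, carried no treatment label and was grown in L-15 medium and 10% FBS. MCF10A, a non-tumorigenic mammary epithelial line, carried no treatment label and was grown in DMEM/F12 holding 5% horse serum, EGF at 20 ng per ml, hydrocortisone at 500 ng per ml, cholera toxin at 100 ng per ml and insulin at 10 µg per ml. Every line was thus grown in serum, and each in a medium of its own, so that line and medium cannot be told apart. Only HT-29 carried the IFN-γ label, and no library of it was labelled as untreated. Line and IFN-γ treatment therefore cannot be told apart either. The labels do not state that the 2 libraries of one line are separate cultures, and p-values therefore cover only library-to-library spread, which may be technical. In such bulk RNA, fewer cells with a transcript and less of it per cell cannot be told apart.

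Recovered totals ran from 16.7 M to 69.5 M reads per library. The identity markers went against the labels of the 2 carcinoma lines. KRT20, an intestinal keratin, stood at 0 and 0.547 normalised reads in the HT-29-labelled libraries and at 29900 and 30880 in the MDA-MB-436-labelled ones. VIL1, which encodes villin, had 0 reads in the HT-29-labelled libraries, against 2055 and 2198 normalised reads in the MDA-MB-436-labelled ones. VIM, which encodes vimentin, stood at 36599 and 35267 in the HT-29-labelled libraries and at 16.5 and 7.39 in the MDA-MB-436-labelled ones. The 9 intestinal markers summed to 6.0 to 8.75 in the HT-29-labelled libraries, with 3 at 0 reads, to 79587 to 83375 in the MDA-MB-436-labelled ones, with 0 at 0 reads, and to 1.87 to 8.84 in MCF10A, with 3 at 0 reads. The 7 IFN-γ response markers summed to 4548 to 4626 in the HT-29-labelled libraries, 201382 to 202859 in the MDA-MB-436-labelled ones and 532 to 551 in MCF10A. These markers stand as they would if the labels of the 2 carcinoma lines were exchanged, which was not tested further. The IFN-γ treatment, the medium and each side of the comparisons would then belong to the other pair. The groups are still named by these labels, and the directions given are those of the labelled groups. Markers of adipocytes and hepatocytes, cells that make much lipid, summed to 240 to 282 in the HT-29-labelled libraries, 6077 to 6161 in the MDA-MB-436-labelled ones and 148 to 160 in MCF10A. SERPINA1 supplied 5645 and 5774 of the sums in the MDA-MB-436-labelled libraries. PLIN4, of the same list, stood at 191 and 205 in the HT-29-labelled libraries, where it supplied most of the sums. It stood at 352 and 325 in the MDA-MB-436-labelled libraries and at 80.5 and 91.3 in MCF10A. CIDEC (49.4 and 37.0) and PLIN1 (18.5 and 24.0) also had reads in the MDA-MB-436-labelled libraries. ADIPOQ and LEP, which define adipocytes, had 0 reads in all 6 libraries. ALB, which defines hepatocytes, had 0 reads in all but the deeper HT-29-labelled library (2.74 normalised reads). The part of such cells or of the other line in the results was not tested.

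Cholesterol is made from acetyl-CoA through mevalonate, isoprenoid diphosphates, squalene and lanosterol. Fatty acids start from the same acetyl-CoA, which is carboxylated and built into palmitate, and then desaturated and elongated. Both routes are switched on by the membrane-bound transcription factors SREBP1 and SREBP2, encoded by SREBF1 and SREBF2, which INSIG proteins hold in the endoplasmic reticulum when sterols are plentiful. Epithelial and carcinoma lines in culture run these routes to make membranes.

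Promoter windows of RefSeq (GRCh38.p14, 250 bases before to 50 bases after a gene's start) were found for 25 of the 29 members. They are shown for the members on which the results turn, namely the regulator SREBF2, an enzyme lower in both carcinoma-labelled pairs than in MCF10A (FDPS), the sterol reductase that went the other way (TM7SF2), and the desaturases with the largest differences (FADS1 and FADS2). Capitals mark matches, on either strand, to TCACNCCAC (the core of a sterol regulatory element), CCAAT (the NF-Y motif), GGGCGG (the Sp1 motif) or CACGTG (an E-box). Overlapping matches run together.

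SREBF2: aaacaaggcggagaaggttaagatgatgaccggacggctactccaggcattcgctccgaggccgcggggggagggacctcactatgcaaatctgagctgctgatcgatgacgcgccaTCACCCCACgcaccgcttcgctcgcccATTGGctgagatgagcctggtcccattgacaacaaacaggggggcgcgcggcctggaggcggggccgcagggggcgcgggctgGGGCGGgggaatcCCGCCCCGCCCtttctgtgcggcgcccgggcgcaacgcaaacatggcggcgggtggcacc
FDPS: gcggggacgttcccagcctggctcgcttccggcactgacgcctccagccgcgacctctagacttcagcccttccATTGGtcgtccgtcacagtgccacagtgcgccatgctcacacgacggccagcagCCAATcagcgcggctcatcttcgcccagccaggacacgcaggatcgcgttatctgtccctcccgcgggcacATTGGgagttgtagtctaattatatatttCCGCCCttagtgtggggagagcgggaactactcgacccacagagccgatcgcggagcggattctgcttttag
TM7SF2: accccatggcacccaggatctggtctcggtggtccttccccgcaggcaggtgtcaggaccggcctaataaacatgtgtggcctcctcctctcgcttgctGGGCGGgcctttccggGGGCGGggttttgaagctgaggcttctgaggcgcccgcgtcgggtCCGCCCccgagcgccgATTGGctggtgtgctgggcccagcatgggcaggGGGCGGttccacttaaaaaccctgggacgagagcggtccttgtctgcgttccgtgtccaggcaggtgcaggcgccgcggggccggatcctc
FADS1: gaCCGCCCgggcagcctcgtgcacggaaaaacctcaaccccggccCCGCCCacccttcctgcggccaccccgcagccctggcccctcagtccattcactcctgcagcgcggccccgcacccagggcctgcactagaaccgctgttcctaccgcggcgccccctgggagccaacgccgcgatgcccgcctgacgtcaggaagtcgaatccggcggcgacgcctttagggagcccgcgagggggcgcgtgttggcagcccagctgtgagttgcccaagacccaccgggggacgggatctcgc
FADS2: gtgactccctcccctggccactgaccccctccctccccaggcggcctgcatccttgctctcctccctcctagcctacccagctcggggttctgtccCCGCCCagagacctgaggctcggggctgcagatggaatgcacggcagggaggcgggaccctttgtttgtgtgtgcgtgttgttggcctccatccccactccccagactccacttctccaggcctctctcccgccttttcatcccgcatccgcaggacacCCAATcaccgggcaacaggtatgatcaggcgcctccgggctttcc

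The windows lie at chr22:41832855-41833154 (plus strand) for SREBF2, chr1:155308616-155308915 (plus strand) for FDPS, chr11:65111622-65111921 (plus strand) for TM7SF2, chr11:61816954-61817253 (minus strand) for FADS1 and chr11:61816154-61816453 (plus strand) for FADS2. FADS2 has a second RefSeq window that begins further from FADS1 and is not shown. The printed FADS1 and FADS2 windows are on opposite strands, point towards each other and are 500 bases apart, so transcripts from these starts overlap, and whether the authors' counting used strand is not given in the sources used here. The CCAAT motif was found in 19 of the 25 members with a window (76.0%), against 39.7% of 27305 genes with a window. These genes were included whether or not they had reads here, unlike the members, which all had reads. A gene counted once if any of its windows matched. The Sp1 motif was found in 24 of 25 (96.0%), against 48.3% of all. TCACNCCAC was found in 1 member, SREBF2, against 1.39% of all genes. Only exact matches to these letters were counted, so a sterol regulatory element with other letters would have been missed. CACGTG was found in 2 members, INSIG1 and LSS, which is 8.0% of the 25 against 8.77% of all. These matches describe the letters in the windows and were set against no measurement of binding.

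The levels below are normalised read counts, the authors' read counts per gene divided by 1 factor per library. A gene was called higher or lower where limma's Benjamini-Hochberg adjusted p over 15638 tested genes was below 0.05 and the log2 fold change on the log2(normalised count + 1) scale was at least 1 in size. All 29 members passed the filter on low values.

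**Figure D1:**
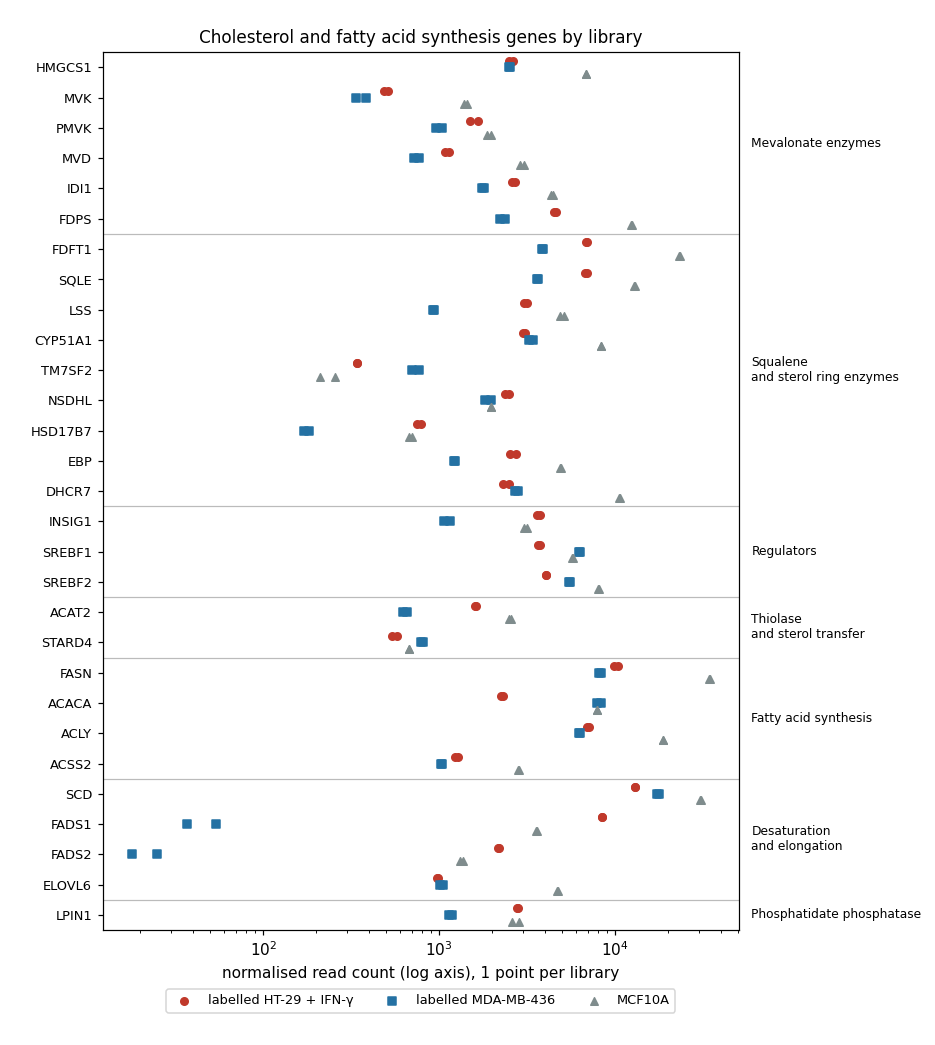
Normalised read count of each member (x, log axis) in the 2 libraries of each line, with 1 point per library and the members grouped by role down the page. The 2 libraries of a line lie close together, MCF10A is the rightmost group for most enzymes, and FADS1 and FADS2 stand at 17.9 to 53.5 in the MDA-MB-436-labelled libraries.

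Relative to transcript length, the order of the members differed between lines. In the HT-29-labelled libraries the highest per kilobase were FDPS (3403 ± 58.4 normalised reads per kilobase, SD, n = 2), FDFT1 (3286 ± 27.7) and SCD (2394 ± 3.12). SQLE (2302 ± 49.4) and EBP (2298 ± 131), next in order there, did not differ beyond their spread. In the MDA-MB-436-labelled libraries they were SCD (3229 ± 76.7), FDFT1 (1849 ± 25.3) and FDPS (1711 ± 75.9). In MCF10A they were FDFT1 (11175 ± 77.7), FDPS (9200 ± 81.4) and SCD (5637 ± 56.0). The lowest per kilobase was TM7SF2 in the HT-29-labelled libraries (217 ± 0.937) and in MCF10A (148 ± 19.8), and FADS2 in the MDA-MB-436-labelled ones (6.78 ± 1.54). The median member stood at 950 normalised reads per kilobase in the HT-29-labelled libraries, 776 in the MDA-MB-436-labelled ones and 1494 in MCF10A.

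The MDA-MB-436-labelled libraries were lower than MCF10A for most of both routes. Of the 29 members 21 were lower (72.4%), 1 was higher and 7 were not called, and the median log2 fold change was -1.57. Over all genes tested 23.7% were called lower and 25.6% higher, 49.2% in all, with a median of 0. Without FADS1 and FADS2 the members' median was -1.48.

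Of the 6 mevalonate enzymes 5 were lower and PMVK was not called. HMGCS1, which condenses acetyl-CoA with acetoacetyl-CoA, stood at 2524 and 2486 in the MDA-MB-436-labelled libraries and at 6820 and 6896 in MCF10A, a log2 fold difference of -1.45 (SE 0.0337, adjusted p = 5.15e-09 by limma). FDPS, which makes farnesyl diphosphate, stood at 2236 and 2380 in the MDA-MB-436-labelled libraries and at 12488 and 12333 in MCF10A, a log2 fold difference of -2.43 (SE 0.0350, adjusted p = 5.34e-10 by limma). No library of one line reached those of the other for either gene. The mevalonate kinase MVK (log2 fold change -1.98), the decarboxylase MVD (-1.99) and the isomerase IDI1 (-1.30) were lower too. PMVK, the next kinase of the route, was under the fold threshold at -0.95, and reached -1.05 with TMM scaling and -1.0 without the deeper MDA-MB-436-labelled library, and was called under both.

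Of the 9 enzymes from squalene to cholesterol 7 were lower, 1 was higher and NSDHL was not called. FDFT1, squalene synthase, showed the largest decrease among the sterol members. It stood at 3841 and 3917 in the MDA-MB-436-labelled libraries and at 23330 and 23561 in MCF10A, a log2 fold difference of -2.60 (SE 0.0235, adjusted p = 7.31e-11 by limma). LSS, which closes the sterol rings to form lanosterol, stood at 933 and 921 in the MDA-MB-436-labelled libraries and at 4891 and 5110 in MCF10A, a log2 fold difference of -2.43. The libraries of the 2 lines were far apart for both genes. The squalene epoxidase SQLE (-1.83), the lanosterol demethylase CYP51A1 (-1.32), the ketosteroid reductase HSD17B7 (-1.97), the sterol isomerase EBP (-2.0) and DHCR7 (-1.95), which makes cholesterol from its last precursor in one branch, were lower as well. TM7SF2, a sterol reductase acting after CYP51A1, went the other way. It stood at 704 and 766 in the MDA-MB-436-labelled libraries and at 212 and 256 in MCF10A, a log2 fold difference of 1.65 (SE 0.101, adjusted p = 1.29e-06 by limma). NSDHL, a sterol dehydrogenase, stood at 1818 and 1983 in the MDA-MB-436-labelled libraries and at 1983 and 1966 in MCF10A, where the libraries overlapped (adjusted p = 0.311 by limma).

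Of the 3 regulators 1 was lower and 2 were not called. INSIG1, itself a known target of SREBP, was lower at 1159 and 1073 in the MDA-MB-436-labelled libraries, against 3150 and 3061 in MCF10A (log2 fold change -1.48, adjusted p = 1.97e-08 by limma). SREBF1 stood at 6246 and 6351 in the MDA-MB-436-labelled libraries and at 5790 and 5682 in MCF10A, a log2 fold difference of 0.13 that was under the fold threshold. SREBF2 had a log2 fold difference of -0.54, also under it. ACAT2, the cytosolic thiolase that makes acetoacetyl-CoA, was lower at 622 and 661 in the MDA-MB-436-labelled libraries, against 2562 and 2499 in MCF10A (log2 fold change -1.98). In RefSeq the span of ACAT2 overlaps those of TCP1, which averaged 8370 ± 73.2 in the MDA-MB-436-labelled libraries and 18063 ± 42.7 in MCF10A (SD, n = 2 each; log2 fold change -1.11), and SOD2 (0.45). The part of their reads in ACAT2 was not tested. STARD4, which carries cholesterol between membranes, had a log2 fold difference of 0.24 and was not called.

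In fatty acid synthesis 3 of 4 members were lower. FASN, the synthase that builds palmitate, stood at 8383 and 8165 in the MDA-MB-436-labelled libraries and at 34676 and 34348 in MCF10A, a log2 fold difference of -2.06 (SE 0.0283, adjusted p = 4.23e-10 by limma). ACLY (-1.57) and ACSS2 (-1.46), which supply acetyl-CoA from citrate and from acetate, were lower. ACACA, the carboxylase that feeds FASN, stood at 8309 and 7909 in the MDA-MB-436-labelled libraries and at 7880 and 7933 in MCF10A. The libraries overlapped, and the log2 fold change of 0.04 was not called (adjusted p = 0.314 by limma). Its sign turned with TMM scaling (-0.06) and with edgeR (-0.03), and it was called under neither. ELOVL6, which elongates saturated and monounsaturated fatty acids, was lower at 1058 and 1017 in the MDA-MB-436-labelled libraries, against 4685 and 4729 in MCF10A (log2 fold change -2.18). SCD, the desaturase that makes oleate, had a log2 fold difference of -0.80 and was not called. LPIN1, a phosphatidate phosphatase of glycerolipid synthesis, was lower (-1.22).

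The largest differences of the 29 were those of the polyunsaturated fatty acid desaturases. FADS1 stood at 53.5 and 37.0 in the MDA-MB-436-labelled libraries, 26 and 60 reads, and at 3567 and 3614 in MCF10A. FADS2 stood at 24.7 and 17.9 in the MDA-MB-436-labelled libraries, 12 and 29 reads, and at 1374 and 1320 in MCF10A. Both were thus near the bottom of the scale in one line and well up it in the other. Their log2 fold changes were -6.30 (SE 0.147, adjusted p = 1.39e-08 by limma) and -5.94 (SE 0.133, adjusted p = 4.37e-09 by limma). KRT5, a basal keratin that stood at 424101 and 416184 in MCF10A, stood at 124 and 3.70 in the 25M and the deeper MDA-MB-436-labelled library. FADS1 (53.5 against 37.0) and FADS2 (24.7 against 17.9) were also higher in the 25M one. The part of RNA from another line in the remaining reads of FADS1 and FADS2 was not tested. Without the 25M library the log2 fold changes were -6.56 and -6.16, and without the deeper one -6.04 and -5.71.

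The HT-29-labelled libraries were lower than MCF10A in most mevalonate enzymes and in all 4 fatty acid synthesis members, with ELOVL6 and DHCR7 lowest relative to MCF10A and FADS1 higher. Of the 29 members 13 were lower (44.8%), 1 was higher and 15 were not called, with a median log2 fold change of -0.92. Over all genes tested 18.1% were called lower and 28.4% higher, 46.5% in all, with a median of 0.13. Scaling by library total alone moved the median of all genes by 0.31 and gave 11 lower and 2 higher members, with 5445 genes higher and 1989 lower in place of 4442 and 2823 over all genes. TMM scaling gave 16 lower and 1 higher members. This comparison and the one above share the MCF10A libraries.

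Of the 6 mevalonate enzymes 4 were lower. HMGCS1 stood at 2495 and 2634 in the HT-29-labelled libraries, against the 6820 and 6896 of MCF10A (log2 fold change -1.42, SE 0.0337, adjusted p = 9.07e-09 by limma). MVK (-1.50), MVD (-1.42) and FDPS (-1.43) were lower by like amounts. IDI1 (-0.73) and PMVK (-0.28) were not called. Of the 9 enzymes after them 3 were lower, FDFT1 (-1.77), CYP51A1 (-1.45) and DHCR7 (-2.14), and 6 were not called. DHCR7 stood at 2511 and 2307 in the HT-29-labelled libraries and at 10689 and 10592 in MCF10A. SQLE (-0.92) and EBP (-0.89) were under the fold threshold, and passed it with TMM scaling (-1.05 for SQLE and -1.02 for EBP). LSS (-0.69), NSDHL (0.31), HSD17B7 (0.16) and TM7SF2 (0.56) stayed under it.

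None of the 3 regulators was called by limma, although each had an adjusted p below 0.05. SREBF2 stood at 4085 and 4062 in the HT-29-labelled libraries and at 8063 and 8104 in MCF10A, a log2 fold difference of -0.99, which passed the fold threshold with TMM scaling (-1.12) and with edgeR (-1.08). SREBF1 had a log2 fold difference of -0.63 and INSIG1 of 0.25. ACAT2 (-0.65), STARD4 (-0.28) and LPIN1 (0.04) were not called.

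All 4 fatty acid synthesis members were lower. FASN stood at 10412 and 9950 in the HT-29-labelled libraries, against 34676 and 34348 in MCF10A (log2 fold change -1.76, SE 0.0283, adjusted p = 1.61e-09 by limma). ACACA stood at 2259 and 2312 in the HT-29-labelled libraries, against 7880 and 7933 in MCF10A (-1.79). ACLY had a log2 fold difference of -1.41 and ACSS2 of -1.17, which ended with scaling by library total (-0.86). ELOVL6 showed the largest decrease, at 974 and 990 in the HT-29-labelled libraries and 4685 and 4729 in MCF10A (-2.26, SE 0.0366, adjusted p = 1.65e-09 by limma). SCD was lower (-1.24), and not called with scaling by library total (-0.92). FADS1 was the only member called higher, at 8467 and 8483 in the HT-29-labelled libraries, against 3567 and 3614 in MCF10A (1.24, SE 0.147, adjusted p = 1.37e-04 by limma). The call was lost when a fold of 2 was the null value (adjusted p = 0.186 by limma). That SE pools the spread of all 3 lines. FADS1 varied most, relative to its level, in the MDA-MB-436-labelled libraries (53.5 and 37.0), which are not part of this comparison. FADS2 had a log2 fold difference of 0.70 and was not called, and passed the fold threshold with scaling by library total (1.01).

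**Figure D2:**
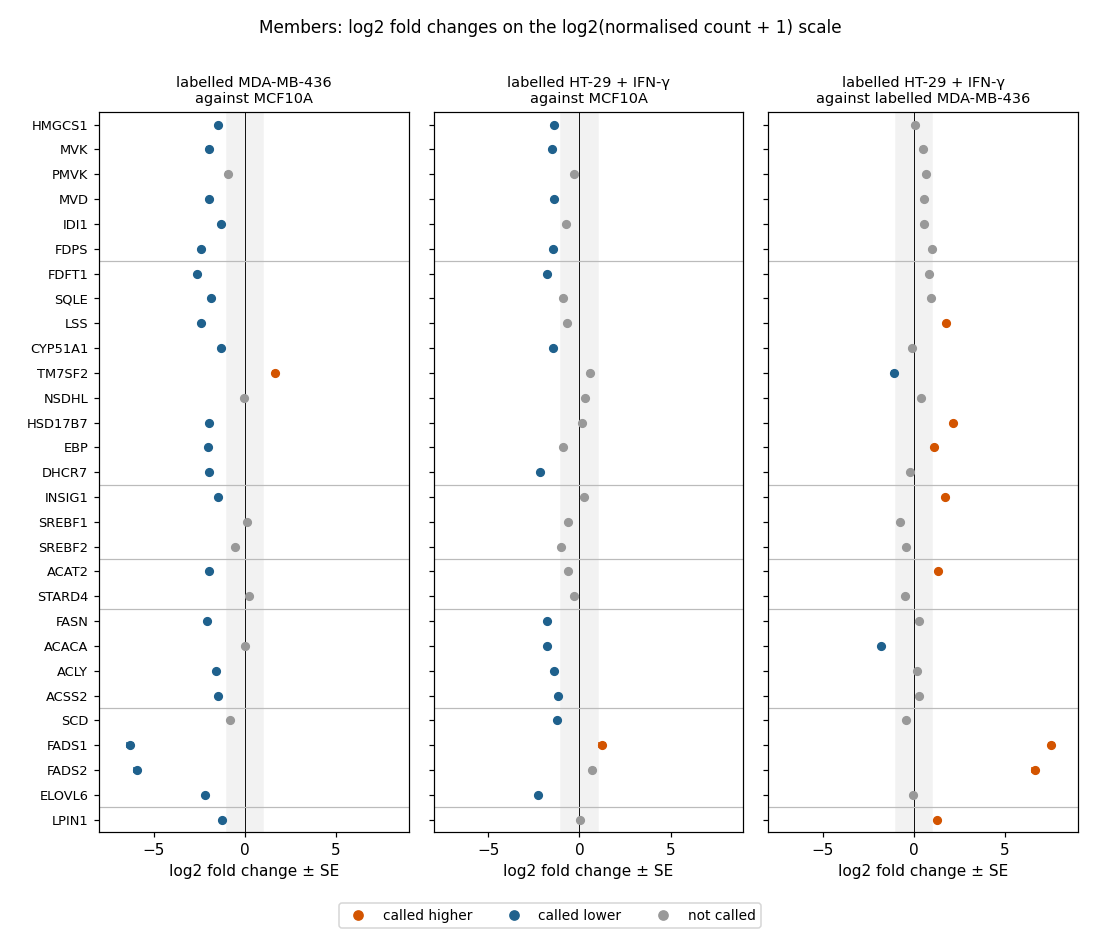
Log2 fold change ± SE of each member (x) in the 3 comparisons (panels), orange where called higher, blue where called lower and grey where not called; the shaded band lies between -1 and 1, and most SE bars are smaller than the points. FADS1 and FADS2 stand far from the other members in the left and right panels, and in those panels TM7SF2 and ACACA lie apart from their groups.

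Set directly against each other, the HT-29-labelled libraries and the MDA-MB-436-labelled ones differed most in the polyunsaturated desaturases FADS1 and FADS2, which were higher in the HT-29-labelled ones. HSD17B7, LSS and EBP of the sterol route were higher too, while TM7SF2 of the same route and ACACA were lower. Of the 29 members 8 were higher in the HT-29-labelled libraries (27.6%), 2 were lower (6.90%) and 19 were not called, with a median log2 fold change of 0.48. Over all genes tested 29.9% were called higher and 23.5% lower, 53.4% in all, with a median of 0.09, so the share called higher was close to that of all genes. Scaling by library total alone moved the median of all genes by 0.34 and gave 11 members higher and 1 lower, with 5692 genes higher and 2797 lower in place of 4675 and 3675 over all genes. The 2 libraries of each carcinoma-labelled line serve here as well as in the comparisons with MCF10A.

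FADS1 stood at 8467 and 8483 in the HT-29-labelled libraries, against 53.5 and 37.0 in the MDA-MB-436-labelled ones, a log2 fold difference of 7.54 (SE 0.147, adjusted p = 5.69e-09 by limma). FADS2 stood at 2204 and 2170 in the HT-29-labelled libraries, against 24.7 and 17.9 in the MDA-MB-436-labelled ones (6.63, SE 0.133, adjusted p = 2.44e-09 by limma). The other higher members were HSD17B7 (2.12), LSS (1.74), INSIG1 (1.72), ACAT2 (1.33), LPIN1 (1.27) and EBP (1.11). Of the genes whose spans overlap ACAT2, SOD2 was higher in this comparison (2.08) and TCP1 stood at 0.68, not called, and the part of their reads in ACAT2 was not tested. INSIG1 stood at 3632 and 3743 in the HT-29-labelled libraries and at 1159 and 1073 in the MDA-MB-436-labelled ones. HSD17B7 stood at 788 and 753 in the HT-29-labelled libraries and at 181 and 171 in the MDA-MB-436-labelled ones. Its near-identical pseudogene HSD17B7P2 was counted at 67.5 and 68.4 in the HT-29-labelled libraries and at 18.5 and 30.8 in the MDA-MB-436-labelled ones. In MCF10A the pseudogene stood at 11.2 and 11.3, and HSD17B7 at 706 and 676. Whether reads were split between gene and pseudogene was not tested.

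The 2 lower members were ACACA and TM7SF2. ACACA stood at 2259 and 2312 in the HT-29-labelled libraries, against 8309 and 7909 in the MDA-MB-436-labelled ones (log2 fold change -1.83, SE 0.0313, adjusted p = 1.14e-09 by limma). TM7SF2 stood at 344 and 341 in the HT-29-labelled libraries, against 704 and 766 in the MDA-MB-436-labelled ones (-1.10, adjusted p = 1.59e-05 by limma), and was not called with scaling by library total (-0.77) or against a fold of 2 (adjusted p = 0.358 by limma). None of the 6 mevalonate enzymes was called, with log2 fold changes from 0.03 for HMGCS1 to 0.99 for FDPS. FDPS passed the fold threshold with scaling by library total (1.32), without the deeper HT-29-labelled library (1.01) and without the deeper MDA-MB-436-labelled one (1.04).

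Ratios between members within a library, per transcript length, showed where the balance of the routes differed. They are descriptions, chosen after the values were seen. FASN over ACACA was 5.30 and 4.95 in the HT-29-labelled libraries, 1.16 and 1.19 in the MDA-MB-436-labelled ones, and 5.06 and 4.98 in MCF10A. SCD over FASN was 1.93 and 2.03 in the HT-29-labelled libraries, 3.30 and 3.27 in the MDA-MB-436-labelled ones, and 1.36 and 1.39 in MCF10A. SREBF1 over SREBF2 was 0.794 and 0.785 in the HT-29-labelled libraries, 0.970 and 1.0 in the MDA-MB-436-labelled ones, and 0.624 and 0.609 in MCF10A. FADS1 over FADS2 stayed between 1.47 and 2.78 in all 6 libraries, although both genes were far lower in the MDA-MB-436-labelled libraries. The libraries of a line lay close to each other in each of these ratios.

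FADS1 and FADS2 lie next to each other in a cluster with FADS3. The 6 protein-coding neighbours on each side of the pair were read as well, chosen after the values of FADS1 and FADS2 were seen. FADS3, a related desaturase, stood at 1767 and 1691 in the HT-29-labelled libraries, 891 and 946 in the MDA-MB-436-labelled ones, and 837 and 784 in MCF10A. FEN1, a flap endonuclease of DNA replication next to FADS1, stood at 2211 and 2383 in the MDA-MB-436-labelled libraries and at 4573 and 4612 in MCF10A, a log2 fold difference of -1.0 that fell on either side of the threshold under other settings (-1.10 to -0.95). TMEM258 stood at 2265 and 2259 in the MDA-MB-436-labelled libraries and at 2225 and 2133 in MCF10A. MYRF, a membrane-bound transcription factor, stood at 443 and 420 in the HT-29-labelled libraries, 18616 and 18785 in the MDA-MB-436-labelled ones, and 11.2 and 10.8 in MCF10A. Its log2 fold change in the MDA-MB-436-labelled libraries against MCF10A was 10.60 (SE 0.0631, adjusted p = 1.70e-11 by limma). RAB3IL1, on the far side of FADS3, stood at 783 and 796 in the HT-29-labelled libraries and at 41.2 and 43.7 in the MDA-MB-436-labelled ones. In MCF10A, where FADS1 stood at 3567 and 3614, RAB3IL1 stood at 103 and 106. Its log2 fold change was -1.28 in the MDA-MB-436-labelled libraries against MCF10A and 4.19 in the HT-29-labelled ones against the MDA-MB-436-labelled ones, both called. INCENP, of the chromosomal passenger complex, was lower in the MDA-MB-436-labelled libraries than in MCF10A (-1.64). BEST1 (6.83), DAGLA (3.55) and SYT7 (2.75) were higher in that comparison, and FADS3, TMEM258 and FTH1 were not called. Of the 10 neighbours tested 4 were thus higher and 3 lower, beside 25.6% higher and 23.7% lower over all genes tested. LRRC10B and SCGB1D1 did not pass the filter, with LRRC10B at 8.23 and 14.2 and SCGB1D1 at 0 reads in the MDA-MB-436-labelled libraries.

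**Figure D3:**
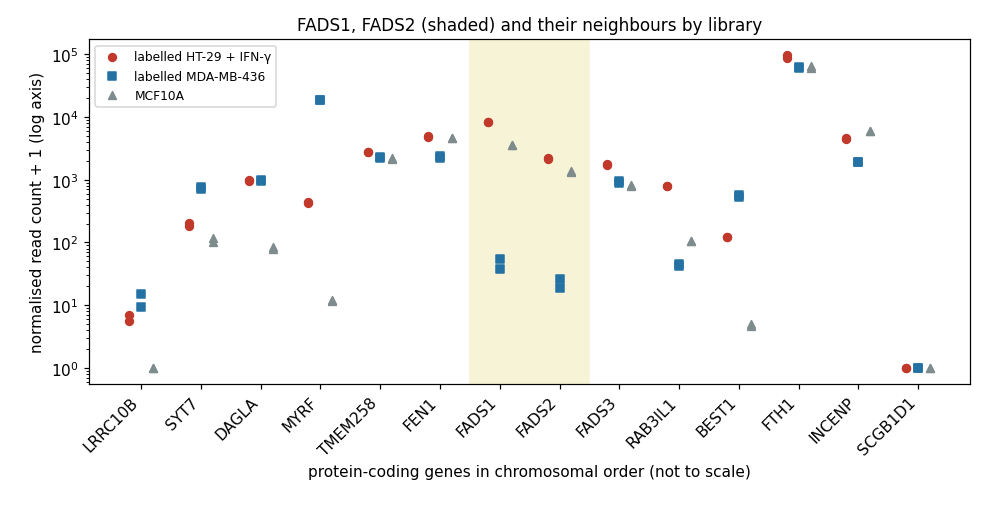
Normalised read count plus 1 (y, log axis) of FADS1, FADS2 and 6 protein-coding neighbours on each side (x, chromosomal order, not to scale), with 1 point per library. In the MDA-MB-436-labelled libraries the shaded FADS1 and FADS2 stand at 17.9 to 53.5, the adjacent FEN1 and FADS3 at 891 to 2383, and RAB3IL1 beyond FADS3 at 41.2 and 43.7.

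Other genes of the same and adjoining routes, in 7 lists of 82 genes of which 79 were tested, were read in the same fit. In the MDA-MB-436-labelled libraries against MCF10A 13 of the 79 were higher (16.5%) and 28 lower (35.4%), beside 25.6% higher and 23.7% lower over all genes tested. Of 4 sterol enzymes not among the members 3 were lower in this comparison. MSMO1, the sterol methyl oxidase that works with NSDHL and HSD17B7, averaged 524 ± 10.2 in the MDA-MB-436-labelled libraries and 6383 ± 68.0 in MCF10A (SD, n = 2 each), a log2 fold difference of -3.60 (adjusted p = 1.70e-10 by limma). LBR (-1.04), which shares the reaction of TM7SF2, was lower too, although it was not called when a fold of 2 was the null value (adjusted p = 0.319 by limma). Of 10 genes of SREBP processing and sterol sensing 1 was higher, INSIG2 (1.21), and 1 lower, ERLIN2 (-2.19), both shares under those of all genes. Of 9 isoprenoid branch genes 4 were lower, among them the prenyltransferase subunits RABGGTA (-2.15) and FNTA (-1.79).

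In the MDA-MB-436-labelled libraries the elongase ELOVL5 was near 0, where FADS1 and FADS2 were also low. ELOVL5, which extends the products of FADS2, stood at 5159 and 4963 in the HT-29-labelled libraries, at 10.3 and 0 (5 and 0 reads) in the MDA-MB-436-labelled ones, and at 6333 and 6273 in MCF10A. Its log2 fold change in the MDA-MB-436-labelled libraries against MCF10A was -10.87 (SE 1.35, adjusted p = 0.00361 by limma), -12.62 without the 25M MDA-MB-436-labelled library and -9.12 without the deeper one. SCD5, another stearoyl-CoA desaturase, stood at 323 and 375 in the HT-29-labelled libraries, 4.12 and 3.08 in the MDA-MB-436-labelled ones, and 1571 and 1561 in MCF10A. Of the 20 tested genes of this list, other fatty acid synthesis, desaturation and elongation, 3 were higher and 8 lower in the MDA-MB-436-labelled libraries against MCF10A. Mitochondrial ACSS1, an acetyl-CoA synthetase, was higher at 2917 ± 9.27 in the MDA-MB-436-labelled libraries, against 72.5 ± 7.18 in MCF10A (SD, n = 2 each), and ELOVL7 (log2 fold change 2.06) was higher too.

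Lipid uptake and activation genes went both ways in the same comparison. Of 13 genes of sterol uptake, storage and export 5 were higher (38.5%) and 3 lower (23.1%). Over all genes tested 25.6% were higher and 23.7% lower. VLDLR, a lipoprotein receptor, averaged 1326 ± 14.4 in the MDA-MB-436-labelled libraries and 4.28 ± 1.89 in MCF10A (log2 fold change 8.02, adjusted p = 1.01e-08 by limma). MYLIP (3.31), a ubiquitin ligase for lipoprotein receptors, and NR1H3 (2.28), a sterol-sensing nuclear receptor, were higher, and NPC2 (-2.29), SOAT1 (-2.08) and SCARB1 (-1.92) were lower. Of 12 genes of fatty acid activation and glycerolipids 3 were higher (25.0%) and 7 lower (58.3%). ACSL5, an acyl-CoA synthetase, averaged 15923 ± 134 in the MDA-MB-436-labelled libraries and 11.5 ± 2.33 in MCF10A (10.33, adjusted p = 5.12e-10 by limma), and LPIN2, a relative of LPIN1, 11120 ± 88.5 against 555 ± 3.76 (4.32). Of 11 fatty acid oxidation genes 1 was higher, PPARA (1.90), and 2 were lower, ACADM (-1.42) and HADHB (-1.20). Both shares (9.09% and 18.2%) were under those of all genes.

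In the HT-29-labelled libraries against MCF10A 16 of the 79 genes were higher (20.3%) and 18 lower (22.8%), beside 28.4% higher and 18.1% lower over all genes tested. Of the 4 other sterol enzymes 3 were lower, among them MSMO1 (log2 fold change -1.91) and SC5D (-1.39). SREBP processing genes had 1 higher, INSIG2 (1.20), and 2 lower, among them ERLIN2 (-1.27), and isoprenoid branch genes 3 lower of 9. Sterol uptake, storage and export had 3 higher and 1 lower of 13, with VLDLR at 2143 ± 37.4 in the HT-29-labelled libraries, against 4.28 ± 1.89 in MCF10A, and ABCA1, a cholesterol exporter, at 969 ± 3.65 against 10.0 ± 1.70 in MCF10A. The other fatty acid synthesis list had 4 higher and 6 lower of 20, and fatty acid activation 3 higher and 1 lower of 12. Fatty acid oxidation had 5 higher and 2 lower of 11. ACADS, a short-chain acyl-CoA dehydrogenase, averaged 1209 ± 12.8 in the HT-29-labelled libraries and 176 ± 7.63 in MCF10A (2.77), and CPT1A, which admits fatty acids to mitochondria, was lower (-1.98).

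In the HT-29-labelled libraries against the MDA-MB-436-labelled ones 25 of the 79 genes were higher (31.6%) and 18 lower (22.8%), shares close to the 29.9% and 23.5% of all genes tested. ELOVL5 (log2 fold change 10.56, adjusted p = 0.00376 by limma; 12.31 without the 25M MDA-MB-436-labelled library and 8.81 without the deeper one) and ABCA1 (4.08) were among the higher genes. MSMO1 was higher at 1698 ± 63.4 in the HT-29-labelled libraries, against 524 ± 10.2 in the MDA-MB-436-labelled ones (1.69). ACSL5 (-8.26), LPIN2 (-3.26) and ACSS1 (-2.96) were lower. SC5D, which acts late in the sterol route, was lower at 1233 ± 63.3 in the HT-29-labelled libraries, against 3149 ± 53.2 in the MDA-MB-436-labelled ones (-1.35).

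**Figure D4:**
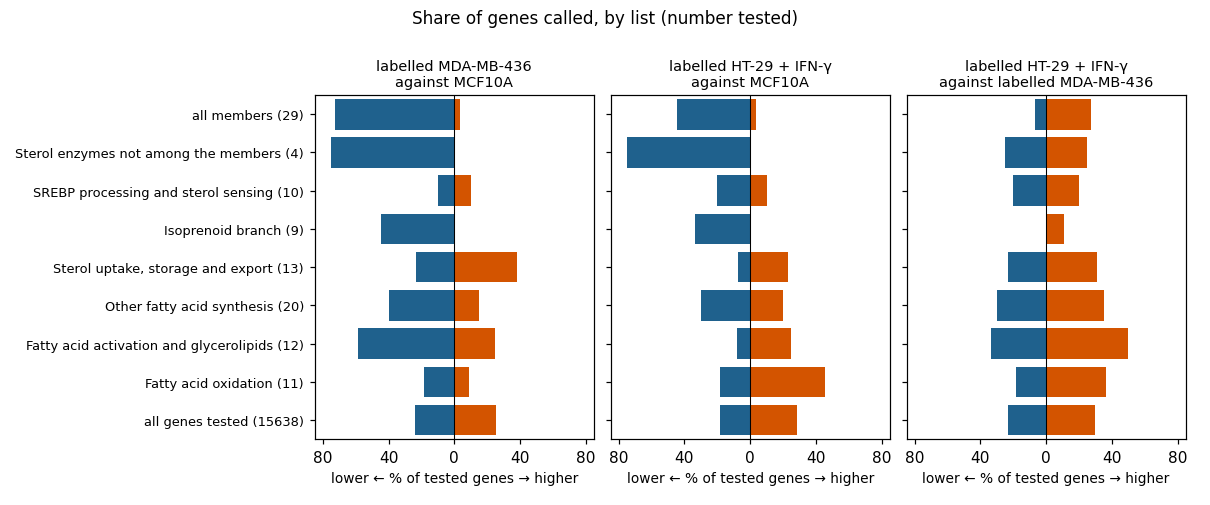
Share of tested genes called higher (right, orange) or lower (left, blue) for the members, the 7 other lists and all genes, in the 3 comparisons (panels), with the number tested in brackets. The members' bar for lower genes reaches 72.4% in the MDA-MB-436-labelled libraries against MCF10A, beside 23.7% of all genes.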

How the data were processed

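RNA of 3 cell lines was sequenced, with 2 libraries of different depth per line. The authors used FastQC, STAR 2.2.0, HTSeq and hg19, per the submitters' processing notes. The sources used here name neither the annotation nor the strand setting. Per the file headers, each deposited table holds a normalised count (a signal) and an RPKM per gene. All deposited normalised counts (100%) were whole multiples of 1 step per library within a tolerance of 0.001 steps, as gene counts divided by 1 factor are, which gave the reads. In the deposited RPKM column 3654 of 23368 rows were out of register with the symbols; it was brought into register by symbol order and used for gene lengths only. Rows with a date in place of a symbol (28) were left out.

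Genes with at least 10 normalised reads in at least 2 libraries (15638) were tested in 1 limma 3.58.1 fit of log2(normalised count + 1) over the 6 libraries (trend and robust, 3 residual degrees of freedom, R 4.3.3), which was tested on simulated data. Fold changes are on that scale, which understates changes of low genes. Alternatives included edgeR 4.0.16 and DESeq2 1.42.0 on the recovered reads, other scalings, filters and pseudocounts, and each library left out. The median per-gene chi-square of paired libraries was 0.567 for MCF10A, 0.761 for HT-29 and 0.712 for MDA-MB-436, against 0.455 from sampling alone, so the pairs differed slightly more than sampling noise. The deeper MCF10A library carries 2 differing depth labels.

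The members and lists were chosen with earlier results of these data known. From each other list up to 3 called genes per direction and comparison were named, those with the largest changes among genes that reached 20 CPM in the line with more and whose libraries did not overlap; some genes this rule names are not reported here. Ratios and the neighbours of FADS1 were chosen after values were seen.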

Additional observations from a re-analysis of the deposited data

How the results depend on the processing

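No result reversed its called direction under the 18 alternatives, 17 planned and 1, the MCF10A libraries summed as 1 sample, chosen after seeing the data. A filter of 10 CPM gave 2424 higher genes of all tested in the MDA-MB-436-labelled libraries against MCF10A, 2209 in the HT-29-labelled ones against MCF10A and 2670 in the HT-29-labelled ones against the MDA-MB-436-labelled ones; fewer genes were tested. With scaling by library total 2 members were higher and 10 genes of the other lists were lower in the HT-29-labelled libraries against MCF10A, and 1 member was lower against the MDA-MB-436-labelled libraries. Tested by limma against a fold of 2, 0 members were higher in the HT-29-labelled libraries against MCF10A and 1 was lower against the MDA-MB-436-labelled ones. By edgeR and by DESeq2 1 member each was higher in the HT-29-labelled libraries against MCF10A. Those 2 tests took no change as the null value, with the fold threshold applied afterwards. On the recovered reads edgeR called 3904 genes higher and 3868 lower in the MDA-MB-436-labelled libraries against MCF10A, 4268 and 3098 in the HT-29-labelled ones against MCF10A, and 4625 and 3781 in the HT-29-labelled ones against the MDA-MB-436-labelled ones. Leaving out each library, with the lone library assumed to vary like the other groups, gave 21 to 22 lower members in the MDA-MB-436-labelled libraries against MCF10A, 13 in each case in the HT-29-labelled ones against MCF10A, and 8 to 9 higher members between the carcinoma-labelled lines. The labels give no replicate numbers; a replicate block of the depth label gave the same member counts, 21 lower and 1 higher, 13 lower and 1 higher, and 2 lower and 8 higher. FADS1 and FADS2 rest on 12 to 60 reads in the MDA-MB-436-labelled libraries, and ELOVL5 on 5 and 0, so the size of their fold changes is limited by depth.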
